A study of Mus musculus with 4 samples.

Results

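The levels of 10 connective-tissue genes were followed through the RNA sequencing of mouse brain: *Dcn*, *Lum*, *Bgn*, *Ogn* and *Aspn*, which encode small leucine-rich proteoglycans, *Fn1*, *Postn* and *Thbs4*, which encode adhesive and matricellular proteins, and *Islr* and *Slc6a13*, which are known from meningeal fibroblasts. They were chosen with earlier results of these data known. Taken by gene name, all 10 were found, each under 1 Ensembl identifier, among 33981 genes. All 10 passed the filter on low counts in every comparison. The 4 groups (NT + Sham, HT + Sham, NT + Stroke, HT + Stroke) had 6 numbered libraries each, 24 in all, and a library is taken as 1 mouse here. All mice were male C57BL/6J, aged 3 to 5 months. Normotensive (NT) mice were infused with vehicle. In hypertensive (HT) mice the infusion held angiotensin II, at a daily dose of 0.28 mg/kg, until the brain was taken on day 28. Sham surgery or photothrombosis aimed at the prefrontal cortex took place on day 7. RNA came from a coronal piece of brain that contained the prefrontal cortex. Each library thus mixed cortex with whatever meninges and neighbouring regions the piece held, and in stroke mice with whatever infarct it held. Nothing in the labels says how libraries were shared between litters or sequencing runs, and the *P* values measure the spread between these libraries.

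In healthy brain, fibroblasts lie in the meninges and around larger vessels and are absent from the neural tissue itself. After an injury, fibroblasts gather in the core of the lesion and lay down a fibrotic scar rich in collagen, fibronectin, periostin and small proteoglycans, and reactive astrocytes border it. The small leucine-rich proteoglycans bind collagen fibrils and growth factors of the TGF-β family, fibronectin and periostin bind integrins on cells, and *Slc6a13* encodes the GABA and taurine transporter GAT2 of the leptomeninges. In bulk tissue, fewer cells of a type and less RNA per cell cannot be told apart.

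Several of the genes lie side by side. Positions are on GRCm38. *Dcn* (decorin, chr10:97479609-97518143) lies 46984 bases before *Lum* (lumican, chr10:97565128-97572703), and *Kera*, another proteoglycan gene, follows *Lum*. On chromosome 13, *Aspn* (asporin, chr13:49544443-49567565) and *Ogn* (osteoglycin, chr13:49608046-49624501) flank *Omd*, and *Ecm2* lies 11653 bases before *Aspn*. *Thbs4* (thrombospondin 4, chr13:92751590-92794818) is elsewhere on that chromosome. *Bgn* (biglycan) is at chrX:73483602-73495933, *Fn1* (fibronectin) at chr1:71585520-71653200, *Postn* (periostin) at chr3:54361109-54391037 and *Islr* at chr9:58156268-58204306. *Slc6a13* (chr6:121300227-121337733) lies 5342 bases before *Slc6a12*, which encodes another GABA and betaine transporter. *Islr* overlaps *Islr2* on the same strand, with 181 of its 2686 exonic bases (6.7%) in common, so some reads of this pair cannot be assigned with certainty.

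RefSeq promoter sequences (GRCm38.p6) were given for 7 of the 10 genes and not used here for *Dcn*, *Lum* and *Fn1*. Those of 4 genes are shown from 250 bases before the transcription start up to it, 5′ to 3′ on the gene's own strand. *Aspn* and *Ogn* are shown because they are neighbours of which *Ogn* passed the test after stroke and *Aspn* did not, and *Bgn* and *Thbs4* because they are unlinked genes that rose. Capitals mark matches on either strand to TATAAA (the TATA box), TGANTCA (an AP-1 site), CAGAC (a SMAD element), GGAATG (a TEAD site) or GGGCGG (a GC box), and adjoining or overlapping matches run together.
*Aspn*, chr13:49544193-49544442, plus strand: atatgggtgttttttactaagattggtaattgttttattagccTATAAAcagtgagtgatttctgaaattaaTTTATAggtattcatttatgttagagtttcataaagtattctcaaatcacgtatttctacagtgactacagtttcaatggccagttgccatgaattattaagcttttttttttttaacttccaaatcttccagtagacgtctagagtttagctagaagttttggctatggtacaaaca
*Ogn*, chr13:49607765-49608014, plus strand: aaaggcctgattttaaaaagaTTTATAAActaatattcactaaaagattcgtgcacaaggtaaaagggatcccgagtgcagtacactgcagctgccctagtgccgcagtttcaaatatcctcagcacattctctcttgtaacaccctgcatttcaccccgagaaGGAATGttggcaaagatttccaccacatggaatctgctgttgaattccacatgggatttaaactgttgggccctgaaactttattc
*Bgn*, chrX:73483351-73483600, plus strand: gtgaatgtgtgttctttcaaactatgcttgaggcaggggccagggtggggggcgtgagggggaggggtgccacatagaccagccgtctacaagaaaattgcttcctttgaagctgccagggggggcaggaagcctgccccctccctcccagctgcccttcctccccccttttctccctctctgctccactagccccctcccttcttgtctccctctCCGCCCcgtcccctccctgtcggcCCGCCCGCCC
*Thbs4*, chr13:92794819-92795068, minus strand: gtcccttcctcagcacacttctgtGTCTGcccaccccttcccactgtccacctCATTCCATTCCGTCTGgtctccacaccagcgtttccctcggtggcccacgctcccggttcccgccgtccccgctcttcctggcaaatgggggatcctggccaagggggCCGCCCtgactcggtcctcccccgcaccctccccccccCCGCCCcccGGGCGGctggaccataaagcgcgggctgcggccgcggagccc

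The *Aspn* and *Ogn* windows were AT-rich (30% and 42% G or C) and the *Bgn* and *Thbs4* windows GC-rich (64.4% and 70.8%), against a median of 52.4% over 32851 windows of the same length. *Aspn* held 2 TATAAA matches and no other motif searched. *Ogn* held 2 overlapping TATAAA matches and 1 GGAATG match, *Bgn* held 3 GGGCGG matches, and *Thbs4* held 2 CAGAC, 2 GGAATG and 3 GGGCGG matches. Of all windows, 12.4% held TATAAA, 6.75% TGANTCA, 42.2% CAGAC, 12.6% GGAATG and 32.7% GGGCGG. A match here is a match of letters and not a measured binding site, and TGANTCA was in none of these 4 windows.

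Libraries held 15922919 to 24865998 counts in total. The glutamate transporter gene *Slc17a7*, taken as a marker of neurons and cortex, was at 1581 to 3154 CPM in all 24 libraries. CPM are counts scaled to library size, with libraries scaled by the TMM method. This gene alone does not give the share of cortex in a library. Of the libraries, 3 stood apart from their groups in injury genes. HT + Sham mouse 6 had 542 CPM of *Gfap*, the astrocyte filament gene, against 163 to 241 in the other HT + Sham mice, and 15.9 CPM of *Lgals3*, a gene of activated macrophages, against 0.405 to 1.17. HT + Stroke mice 1 and 6 had 255 and 230 CPM of *Gfap* and 2.85 and 3.13 CPM of *Lgals3*, against 904 to 1360 and 12.8 to 84.0 in the other HT + Stroke mice. HT + Stroke mouse 6 also held more skeletal muscle transcripts, with 238 CPM over 8 muscle genes against 14.8 to 21.5 in the rest of its group. The skin markers *Krt5* (1.91 CPM) and *Krt14* (0.683 CPM) were highest of all 24 libraries in HT + Stroke mouse 3. So were the bone markers *Ibsp* (2.37 CPM) and *Bglap* (1.55 CPM). The summed bone list was 37.3 to 58.0 CPM in HT + Stroke and 53.5 to 74.6 CPM in NT + Stroke. Mouse 3 was also the highest HT + Stroke mouse for *Lum*, *Dcn*, *Bgn*, *Fn1*, *Postn*, *Ogn* and *Thbs4*, and a link was not tested. Calls of the 10 genes that involve the 3 libraries that stood apart in injury genes are given with and without them. Those 3 libraries were picked by injury genes after the data were seen, so the values without them are not independent evidence.

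Compared per gene length (deposited FPKM, n = 6), the order of the 10 genes in NT + Sham was *Islr* (14.3 ± 1.04, mean ± SD), *Slc6a13* (5.98 ± 0.771), *Bgn* (3.86 ± 0.532), *Fn1* (3.55 ± 0.226), *Ogn* (2.65 ± 0.331), *Thbs4* (1.66 ± 0.557), *Dcn* (1.64 ± 0.279), *Lum* (0.955 ± 0.271), *Aspn* (0.616 ± 0.185) and *Postn* (0.356 ± 0.0883). Neighbours in this order whose means ± SD overlapped were *Bgn* and *Fn1*, *Thbs4* and *Dcn*, *Lum* and *Aspn*, and *Aspn* and *Postn*. *Islr* and *Slc6a13* thus stood first in NT + Sham, and the cells that held their RNA were not measured. In NT + Stroke *Islr* was still first (33.5 ± 7.69 FPKM), while *Bgn* (12.8 ± 3.13) and *Dcn* (9.41 ± 2.58) moved to the second and the fourth place. *Postn* (0.771 ± 0.213) and *Aspn* (0.657 ± 0.299) stayed last there.

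The effect of stroke at normal blood pressure was examined in NT + Stroke vs NT + Sham. Of the 10 genes, 9 rose, by 1.65-fold to 7.41-fold, and *Aspn* did not pass the test. Of all 16835 genes tested, 14.4% rose and 25.9% changed in either direction (edgeR quasi-likelihood test, adjusted *P* under 0.05). The median log2 fold change was 1.33 over the 10 genes and −0.01 over all genes tested. In 7 of the 10 every NT + Stroke mouse lay above every NT + Sham mouse, as in 7.47% of all genes tested.

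Among the proteoglycans, *Lum* and *Dcn* changed most. *Lum*, which spaces collagen fibrils, ranged from 1.63 to 3.53 CPM (median 2.28) in NT + Sham and from 7.98 to 28.3 CPM (median 18.1) in NT + Stroke. The groups did not overlap, and NT + Stroke mouse 4 was the lowest of the stroke mice. The fitted log2 fold change was 2.89 (SE 0.29, edgeR adjusted *P* = 1.05e-05). *Dcn*, which binds collagen and TGF-β, ranged from 7.25 to 11.6 CPM (median 9.55) in NT + Sham and from 37.0 to 70.4 CPM (median 51.9) in NT + Stroke. All stroke mice were far above the sham mice, with a log2 fold change of 2.47 (SE 0.18, adjusted *P* = 8.61e-07 by edgeR).

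*Bgn*, a close relative of *Dcn* that also signals through Toll-like receptors, was at 20.5 to 28.3 CPM (median 23.9) in NT + Sham and at 56.5 to 99.5 CPM (median 71.5) in NT + Stroke. The ranges were separate, and the log2 fold change was 1.68 (SE 0.15, edgeR adjusted *P* = 3.67e-06). *Ogn*, a proteoglycan of bone and other connective tissue, was at 5.89 to 8.07 CPM (median 6.71) in NT + Sham and at 9.98 to 31.3 CPM (median 19.6) in NT + Stroke. The groups did not overlap, although the stroke mice were scattered, with mouse 1 at 31.3 and mouse 3 at 9.98 CPM. The log2 fold change was 1.49 (SE 0.24, edgeR adjusted *P* = 0.000432).

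*Aspn*, whose product binds collagen and inhibits TGF-β, was at 1.18 to 2.32 CPM (median 1.27) in NT + Sham and at 0.935 to 2.46 CPM (median 1.14) in NT + Stroke. The sham range lay inside the stroke range, with 3 stroke mice below every sham mouse and 1 above every sham mouse. Above the sham median were 2 of 6 stroke mice (mice 1 and 2). The log2 fold change was 0.02 (SE 0.28, edgeR adjusted *P* = 0.970), with a 95% interval of −0.52 to 0.57. The genes on both sides of *Aspn* in the cluster rose in the same mice. *Ecm2* went from 2.67 ± 0.577 CPM in NT + Sham to 4.57 ± 0.419 CPM in NT + Stroke, by 0.79 on the log2 scale (SE 0.16), and *Omd* from 1.20 ± 0.264 to 2.52 ± 1.15 CPM, by 1.08 (SE 0.27). Their edgeR adjusted *P* values were 0.00105 and 0.00575. *Kera*, next to *Lum*, had 0 counts in 23 of the 24 libraries and 2 counts in the other one.

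The adhesive proteins rose less than the leading proteoglycans. *Fn1* was narrowly spread in NT + Sham, at 39.0 to 45.7 CPM (median 42.2), and was at 65.4 to 107 CPM (median 74.6) in NT + Stroke. All stroke mice exceeded all sham mice, and the log2 fold change was 0.96 (SE 0.12, edgeR adjusted *P* = 2.68e-05). *Postn*, an integrin ligand of activated fibroblasts, was at 1.79 to 3.83 CPM (median 3.28) and at 4.93 to 8.97 CPM (median 5.66) in the same groups. The ranges were separate, and the log2 fold change was 1.06 (SE 0.19, edgeR adjusted *P* = 0.000503). *Thbs4*, a thrombospondin of tendon, muscle and astrocytes, was at 3.15 to 7.83 CPM (median 5.29) and at 7.66 to 24.5 CPM (median 17.9). Mouse 4 of NT + Stroke fell inside the sham range and the other 5 above it, and the log2 fold change was 1.60 (SE 0.29, edgeR adjusted *P* = 0.00139).

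*Islr* and *Slc6a13* behaved differently from mouse to mouse. *Islr*, which encodes a secreted protein with leucine-rich repeats and an immunoglobulin domain, was at 35.5 to 43.4 CPM (median 38.7) in NT + Sham and at 65.9 to 108 CPM (median 86.3) in NT + Stroke. The groups were separate, and the log2 fold change was 1.17 (SE 0.13, edgeR adjusted *P* = 1.02e-05). The overlapping gene *Islr2* did not pass the test (log2 fold change −0.30, SE 0.13, edgeR adjusted *P* = 0.119). *Slc6a13* was at 13.8 to 20.8 CPM (median 17.8) and at 19.995 to 42.5 CPM (median 27.1). Its highest value was in NT + Stroke mouse 4, the stroke mouse lowest in *Lum* and *Thbs4*, and mouse 6 lay inside the sham range. The log2 fold change was 0.72 (SE 0.17, edgeR adjusted *P* = 0.00613), and its neighbour *Slc6a12* changed by 0.76 (SE 0.25, edgeR adjusted *P* = 0.0287). With the mean level of 7 olfactory bulb markers as a covariate, which was added after the data were seen, *Slc6a13* changed by 0.49 (edgeR adjusted *P* = 0.152). The other 8 kept their calls, and 11.3% of genes tested rose in that fit.

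**Figure D1:**
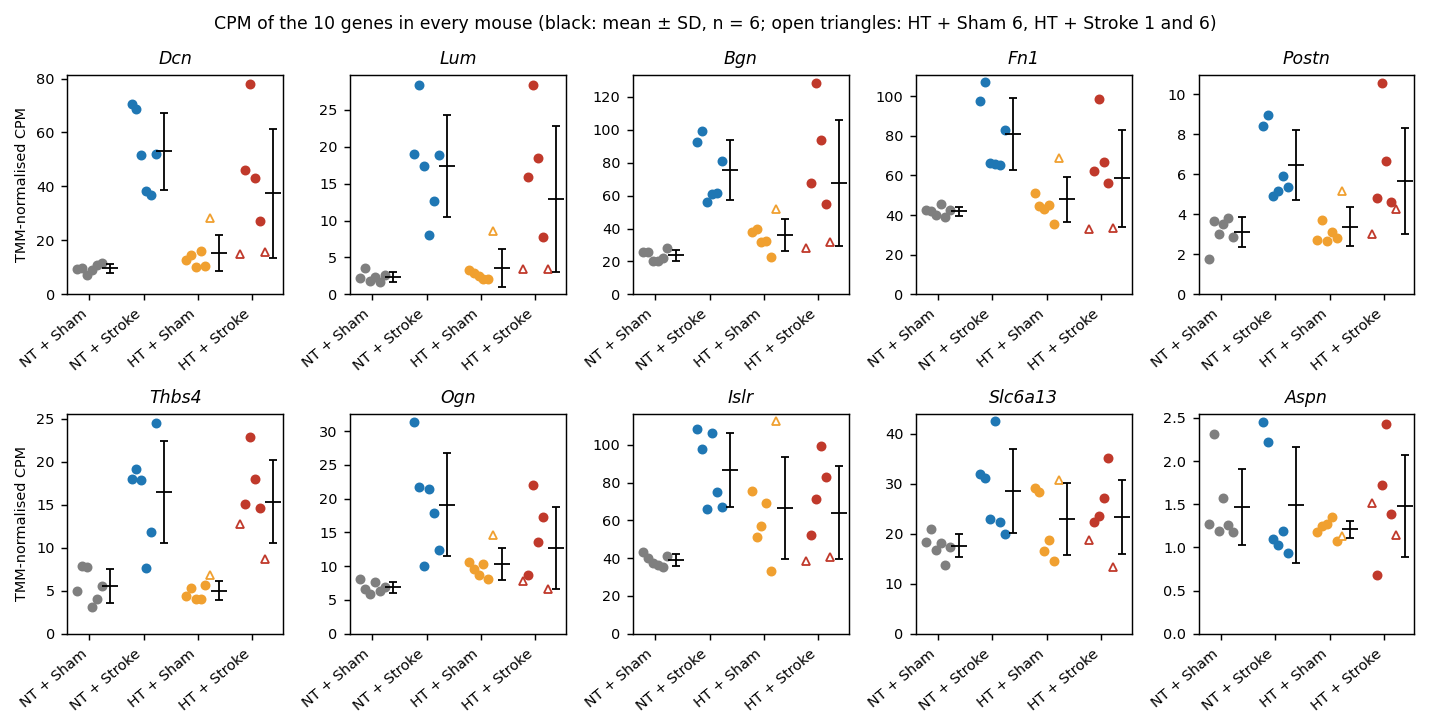
CPM of each of the 10 genes in every mouse of the 4 groups, with the group mean ± SD beside the points and open triangles for HT + Sham mouse 6 and HT + Stroke mice 1 and 6. In 7 genes no NT + Stroke mouse falls as low as an NT + Sham mouse, while for *Aspn* the NT + Sham range lies inside the NT + Stroke range. The 2 open HT + Stroke triangles of *Dcn*, *Lum*, *Bgn* and *Fn1* sit below the other HT + Stroke points.

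Genes related by function were examined from lists written for this purpose. Of 11 fibril and fibroblast collagens, 11 rose in NT + Stroke vs NT + Sham (median log2 fold change 1.25). The strongest were *Col3a1*, at 2.33 ± 0.346 and 49.5 ± 23.5 CPM (log2 fold change 4.41, SE 0.42), and *Col1a1*, at 11.4 ± 1.95 and 140.5 ± 68.3 CPM (3.64, SE 0.37). Of 25 tested genes of matrix assembly and crosslinking, 21 rose and 0 fell (median 0.88), with *Lox*, the collagen crosslinking oxidase, at 2.92 (SE 0.33) and *Ltbp2*, a TGF-β binding protein of microfibrils, at 2.79 (SE 0.27). Of 27 tested markers of meningeal and perivascular fibroblasts, 24 rose (median 0.87), with *Serping1*, the C1 inhibitor, at 2.38 (SE 0.19) and the forkhead factors *Foxd1* and *Foxc2* at 1.48 and 1.45. *Apod*, of the same list, was at 222 ± 33.1 and 615 ± 113 CPM. The paper uses *Serping1* as a marker of proinflammatory astrocytes, and *Gjb6* is also in the astrocyte list used here. The list is therefore not specific to fibroblasts. *Pdgfra* (0.03), which oligodendrocyte precursors also express, *Cemip* (0.03) and *Lama1* (0.44) did not pass the test.

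Among 9 tested proteoglycans of the same superfamily outside the 10 genes, 6 rose and 0 fell (median 0.79), led by *Fmod*, the tendon proteoglycan fibromodulin, at 27.1 ± 3.50 and 63.7 ± 16.7 CPM (log2 fold change 1.25, SE 0.16). Of 14 tested matricellular genes, 10 rose and *Ccn3* fell by 0.39 on the log2 scale, while *Ccn2* (0.15) did not pass the test. *Ccn5*, *Thbs1*, the activator of latent TGF-β, and *Tgfbi*, a TGF-β induced adhesive protein, changed by 3.18, 2.16 and 1.87. Of 10 tested receptors for fibronectin and periostin, 4 rose, namely *Cd44*, *Itga5*, *Itgb5* and *Itgb1*, by 2.32, 1.20, 0.93 and 0.37. Of 15 profibrotic ligands and regulators, 10 rose, with *Tgfb1* at 1.15 and its receptor gene *Tgfbr2* at 1.06. These shares stand against 14.4% of all genes tested. The lists were chosen with earlier results of these data known, so the shares are descriptions and not independent evidence. With the olfactory bulb markers as a covariate, 10 collagens, 19 genes of matrix assembly and crosslinking, 19 fibroblast markers and 4 other proteoglycans rose. So did 8 matricellular genes, 4 receptors and 9 profibrotic genes, against 11.3% of genes tested.

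Other cell types were read from their own lists in the same comparison, where 14.4% of all genes tested rose and 25.9% changed in either direction. Macrophage and microglia markers rose in 10 of 13 cases (median 0.83), and their summed level was 200 to 214 CPM in NT + Sham and 369 to 868 CPM in NT + Stroke. Astrocyte markers rose in 6 of 8 cases (median 0.30), endothelial markers in 2 of 8 (median 0.17) and mural cell markers in 3 of 8 (median 0.24), while 0 of 5 tested blood markers passed. Neuron and cortex markers fell in 7 of 9 cases (median −0.41). Olfactory bulb markers rose in 5 of 7 cases (median 1.23), with a summed level of 69.8 to 156 CPM in NT + Sham and 108 to 432 CPM in NT + Stroke. Of 7 striatum markers 0 passed, with a median of 0.73 and a summed level of 337 to 1577 CPM in NT + Sham and 448 to 2084 CPM in NT + Stroke. Subventricular zone and neuroblast markers rose in 3 of 7 cases and bone and cartilage markers in 3 of 6 tested. Of the choroid plexus markers 1 of 5 tested rose, and of the muscle markers 1 of 4 fell, while 0 of 3 tested markers of skin and nasal epithelium passed. With the striatum list as a covariate, which was also added after the data were seen, the same 9 of the 10 genes rose, *Thbs4* by 1.23 and *Lum* by 2.57. In that fit 15.1% of genes tested rose. The part of the other lists in the values of the 10 genes was not tested.

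**Figure D2:**
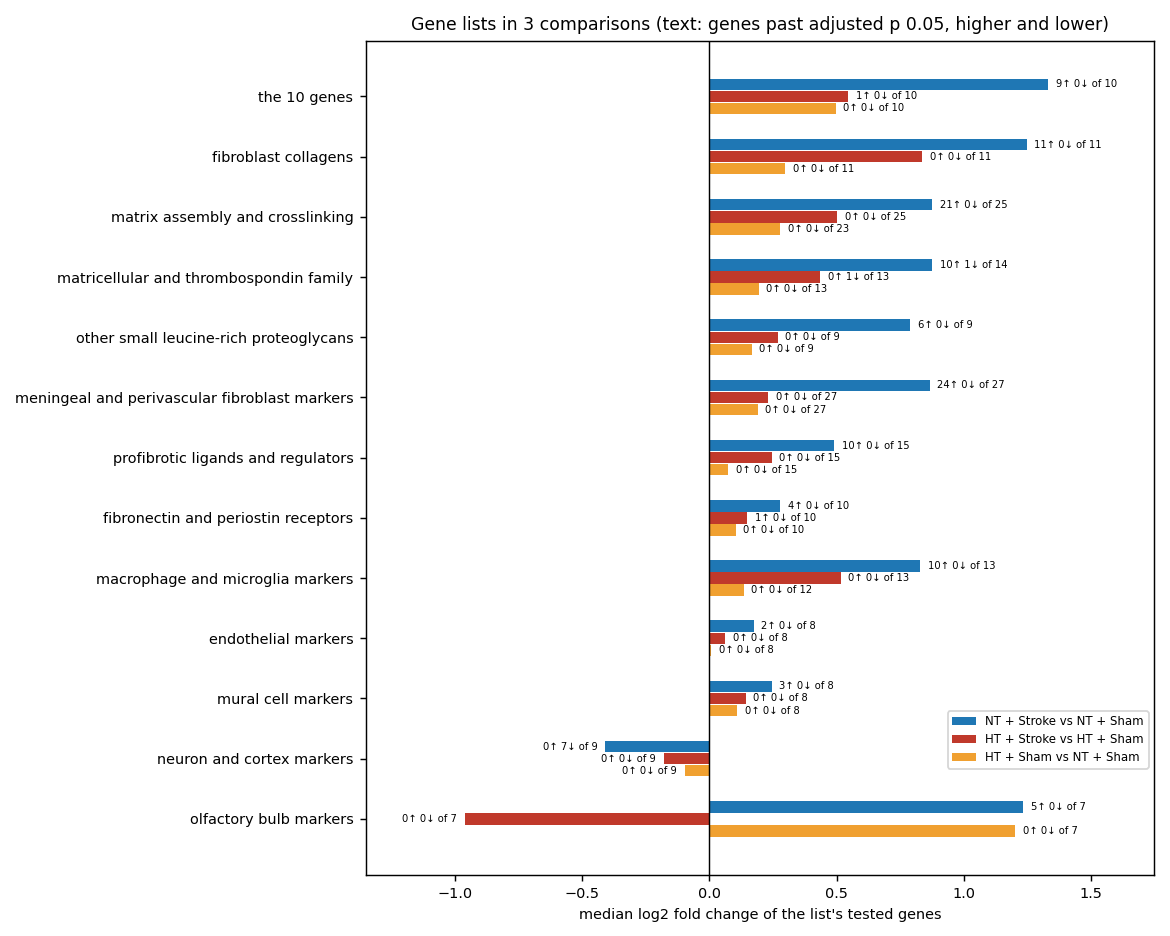
Median log2 fold change of the tested genes of 13 lists in 3 comparisons, with the number of genes that passed the test in each direction written at each bar. The collagen bar for NT + Stroke vs NT + Sham (1.25, 11 of 11 higher) is next to that of the 10 genes (1.33, 9 of 10), and the neuron and cortex bar points the other way.

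The same surgery at raised blood pressure was examined in HT + Stroke vs HT + Sham. *Thbs4* was the only one of the 10 genes that rose, and 0.544% of 16741 genes tested rose (0.645%, 108 genes, passed the test in either direction). *Thbs4* was at 3.99 to 6.82 CPM (median 4.83) in HT + Sham and at 8.71 to 22.9 CPM (median 14.8) in HT + Stroke. Every HT + Stroke mouse was above every HT + Sham mouse, as in 0.591% of genes tested, mice 1 and 6 included. The log2 fold change was 1.63 (SE 0.21, edgeR adjusted *P* = 0.00627), next to 1.60 in the normotensive groups. The 7 striatum markers moved the same way, with a summed level of 328 to 1040 CPM in HT + Sham and 823 to 2591 CPM in HT + Stroke, although 0 of 7 passed edgeR's adjusted threshold (DESeq2 called 7). With that list as a covariate *Thbs4* rose by 1.94 (edgeR adjusted *P* = 0.0423), and 3 genes in all passed.

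An unadjusted *P* under 0.05 with a higher level was found for 5 of the 10, as for 10.5% of genes tested: *Thbs4*, *Lum*, *Postn*, *Dcn* and *Bgn*. *Lum* was at 2.09 to 8.64 CPM (median 2.65) in HT + Sham and at 3.44 to 28.4 CPM (median 11.9) in HT + Stroke. Its spread in HT + Stroke was wide, with mice 1 and 6 at 3.44 and 3.495 CPM and mouse 3 at 28.4 CPM. On the log2 scale the difference was 1.85 (SE 0.60, edgeR adjusted *P* = 0.151). *Dcn* was at 10.1 to 28.2 CPM (median 13.7) and at 15.02 to 77.9 CPM (median 35.1), and 3 of 6 HT + Stroke mice exceeded HT + Sham mouse 6, the highest of its group. The log2 fold change was 1.30 (SE 0.44, edgeR adjusted *P* = 0.168). *Bgn* ranged from 23.0 to 51.6 CPM (median 35.3) in HT + Sham and from 28.4 to 128 CPM (median 61.5) in HT + Stroke, and *Postn* from 2.66 to 5.19 CPM (median 2.99) and from 3.03 to 10.6 CPM (median 4.74). Above every HT + Sham mouse were 4 of 6 HT + Stroke mice for *Bgn* and 2 of 6 for *Postn*. Their log2 fold changes were 0.93 (SE 0.37) and 0.77 (SE 0.27), with adjusted *P* values of 0.239 and 0.161 by edgeR.

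The remaining 5 genes differed by less. *Islr* ranged from 33.2 to 112 CPM (median 63.0) in HT + Sham and from 38.4 to 99.2 CPM (median 61.8) in HT + Stroke, so the second range lay inside the first. *Slc6a13* ranged from 14.5 to 30.7 CPM (median 23.5) and from 13.3 to 35.2 CPM (median 22.97). The log2 differences were −0.03 (SE 0.32) for *Islr* and 0.05 (SE 0.25) for *Slc6a13*. *Ogn* (8.03 to 14.6 and 6.67 to 22.1 CPM) and *Fn1* (35.5 to 68.6 and 33.2 to 98.6 CPM) had HT + Stroke mice on both sides of the HT + Sham range, 2 above and 2 below for *Ogn* and 1 above and 2 below for *Fn1*. *Aspn* was tightly spread in HT + Sham (1.07 to 1.35 CPM) and wider in HT + Stroke (0.675 to 2.44 CPM), with 4 mice above and 1 below the HT + Sham range. Their log2 fold changes were 0.32 (SE 0.28), 0.31 (SE 0.27) and 0.32 (SE 0.26). Over these 5 genes the edgeR adjusted *P* values were 0.573 to 0.979. These misses do not show that the levels were alike, since the 95% interval of *Islr* ran from −0.66 to 0.61. The olfactory bulb list was lower in HT + Stroke (38.3 to 321 CPM) than in HT + Sham (115 to 517 CPM), with a median log2 fold change of −0.96 and 0 of 7 genes past edgeR's adjusted threshold. With that list as a covariate, *Ogn* rose by 0.75 and *Postn* by 1.09 (edgeR adjusted *P* = 0.0404 and 0.0389) beside *Thbs4*. In that fit 3.46% of genes tested rose, against 0.544% without the covariate, and *Islr* was at 0.55.

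Without HT + Sham mouse 6 and HT + Stroke mice 1 and 6, 7 of the 10 genes rose, as did 6.81% of 16956 genes tested (1155 higher and 282 lower). The log2 fold changes were then 2.79 for *Lum*, 1.95 for *Thbs4*, 1.94 for *Dcn*, 1.41 for *Bgn*, 1.17 for *Postn*, 0.73 for *Ogn* and 0.72 for *Fn1* (edgeR adjusted *P* 2.62e-05 to 0.0400). *Islr* (0.45), *Slc6a13* (0.37) and *Aspn* (0.38) did not pass there either. Leaving out 1 library at a time moved the count of genes that passed from 9, without HT + Sham mouse 3 or HT + Stroke mouse 2, to 533, without HT + Stroke mouse 1, while *Thbs4* passed each time. The count was also over 1.5 times smaller without HT + Sham mouse 1, 2 or 4 or HT + Stroke mouse 4 and over 1.5 times larger without HT + Stroke mouse 5 or 6. Of the lists, the collagens went from 0 to 7 genes called higher without the 3 libraries, matrix assembly and crosslinking from 0 to 17, and macrophage and microglia markers from 0 to 8. Meningeal and perivascular fibroblast markers went from 0 to 8 and other proteoglycans from 0 to 2, while 24 and 6 rose in NT + Stroke vs NT + Sham. Matricellular genes and profibrotic genes each went from 0 to 6, and the receptors from 1 to 3.

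**Figure D3:**
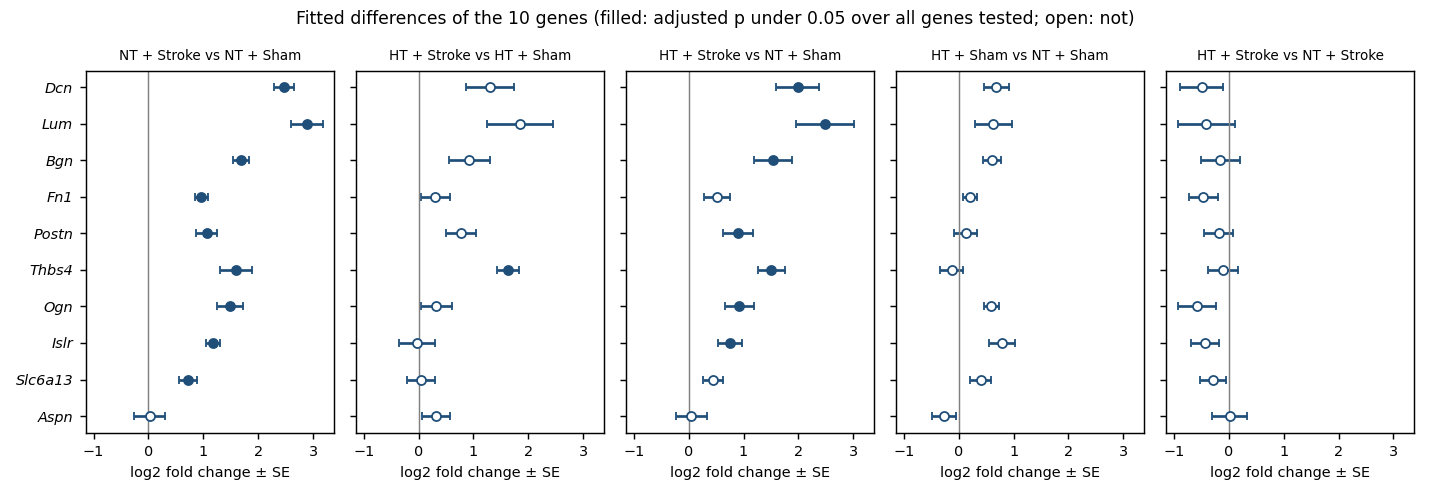
Fitted log2 fold change ± SE of each of the 10 genes in 5 comparisons, filled where the adjusted *P* passed the threshold. There are 9 filled genes in NT + Stroke vs NT + Sham, 1 (*Thbs4*) in HT + Stroke vs HT + Sham, 7 in HT + Stroke vs NT + Sham and 0 in the 2 comparisons of HT with NT mice.

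Hypertension and stroke together were set against neither in HT + Stroke vs NT + Sham, which shares its control mice with NT + Stroke vs NT + Sham. Of the 10 genes 7 rose, as did 8.38% of 16749 genes tested (14.7% changed in either direction): *Lum* (log2 fold change 2.49, SE 0.53), *Dcn* (1.99, SE 0.39), *Bgn* (1.54, SE 0.35), *Thbs4* (1.51, SE 0.25), *Ogn* (0.92, SE 0.26), *Postn* (0.89, SE 0.27) and *Islr* (0.75, SE 0.22). The edgeR adjusted *P* values were 0.00836 to 0.0393. *Dcn*, *Bgn* and *Thbs4* did not overlap between the groups, as 2.26% of genes tested did not in this direction. *Fn1* (0.51, SE 0.23), *Slc6a13* (0.45, SE 0.19) and *Aspn* (0.05, SE 0.28) did not pass the test. Without HT + Stroke mice 1 and 6, *Fn1* (0.80) and *Slc6a13* (0.66) rose as well, with 12.2% of 17168 genes tested higher. Among the lists, 7 of 11 collagens, 14 of 23 tested genes of matrix assembly and crosslinking, 7 of 27 fibroblast markers and 3 of 9 other proteoglycans rose. Without HT + Stroke mice 1 and 6 the counts were 9, 19, 19 and 5, and with the olfactory bulb list as a covariate 7, 15, 11 and 3. The striatum list summed to 337 to 1577 CPM in NT + Sham and 823 to 2591 CPM in HT + Stroke. With it as a covariate, 0 of all genes passed edgeR's adjusted threshold and 3872 had an unadjusted *P* under 0.05, and the 10 genes had log2 fold changes of 0.18 to 2.498, with adjusted *P* values of 0.0562 and above. With the olfactory bulb list as a covariate, 7 of the 10 rose, as did 9.24% of genes tested.

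The calls of *Ogn*, *Postn* and *Islr* in that comparison lay near the threshold (edgeR adjusted *P* 0.0326 to 0.0393). Each was lost when any 1 of the 6 NT + Sham mice was left out, and also without HT + Stroke mouse 3 or 4, so that 4 of the 10 genes passed there. *Ogn* and *Islr* were lost without HT + Stroke mouse 5 as well, and *Postn* and *Islr* without mouse 2. *Fn1* passed without HT + Stroke mouse 1 and *Slc6a13* without mouse 6. *Lum*, *Dcn*, *Bgn* and *Thbs4* passed with every single library left out.

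Angiotensin II without stroke was examined in HT + Sham vs NT + Sham. None of the 16581 genes tested passed edgeR's adjusted threshold (0%), with DESeq2 or limma calling 0 of the same genes as well, and 1332 (8.03%) had an unadjusted *P* under 0.05. With a higher level in HT + Sham, 5 of the 10 were under that unadjusted threshold, against 4.96% of genes tested: *Ogn*, *Bgn*, *Islr*, *Dcn* and *Slc6a13*. *Islr* was at 33.2 to 112 CPM (median 63.0) in HT + Sham against 35.5 to 43.4 CPM in NT + Sham, and 5 of 6 mice were above every NT + Sham mouse while mouse 5 was below all of them. Its log2 fold change was 0.78 (SE 0.24, edgeR adjusted *P* = 0.435). *Ogn* (0.60, SE 0.14) and *Bgn* (0.61, SE 0.16) were also above every NT + Sham mouse in 5 of 6 mice, with an edgeR adjusted *P* of 0.406 each.

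*Dcn* differed by 0.69 (SE 0.23) and *Slc6a13* by 0.40 (SE 0.18) in these sham mice. *Fn1* (0.21), *Postn* (0.13), *Thbs4* (−0.13) and *Aspn* (−0.27) differed by less, and *Lum* by 0.63 (SE 0.34). Without HT + Sham mouse 6, the difference was 0.13 for *Lum*, 0.41 for *Dcn*, 0.55 for *Islr*, 0.46 for *Ogn*, 0.47 for *Bgn* and 0.29 for *Slc6a13*. The olfactory bulb list was at 115 to 517 CPM in HT + Sham against 69.8 to 156 CPM in NT + Sham. With that list as a covariate, *Islr* differed by 0.07, *Dcn* by 0.06, *Slc6a13* by 0.15, *Bgn* by 0.23, *Ogn* by 0.24 and *Lum* by −0.30, and 0 of the 10 passed.

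Among stroke mice, HT + Stroke vs NT + Stroke gave no gene past the adjusted threshold of edgeR, DESeq2 or limma out of 17008 (0%), and 1230 (7.23%) had an unadjusted *P* under 0.05 with edgeR, none of them among the 10. All except *Aspn* (0.01) had a lower fitted level in HT + Stroke, from −0.58 (SE 0.35) for *Ogn* to −0.10 (SE 0.27) for *Thbs4*, as had 52.4% of genes tested. For *Dcn* the difference was −0.50 (SE 0.39), and the 3 lowest HT + Stroke mice (1, 5 and 6) were below every NT + Stroke mouse while mouse 3 was above them all. Without HT + Stroke mice 1 and 6, *Lum* (0.03), *Postn* (0.06), *Bgn* (0.19) and *Thbs4* (0.10) were on the other side of 0, and *Dcn* and *Ogn* were at −0.13 and −0.31.

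Whether the response to stroke differed with blood pressure was tested as an interaction over all 24 libraries. None of 17608 genes passed with edgeR or limma (0%), 22 did with DESeq2, and 1836 (10.4%) were under 0.05 before adjustment with edgeR. That unadjusted threshold was met, with a smaller response in HT mice, by 5 of the 10, against 5.88% of genes tested: *Islr* (−1.21, SE 0.36), *Ogn* (−1.17, SE 0.39), *Dcn* (−1.18, SE 0.49), *Fn1* (−0.66, SE 0.30) and *Slc6a13* (−0.67, SE 0.32). Their edgeR adjusted *P* values were 0.319 to 0.471, and DESeq2 called 0 of the 10. For *Thbs4* the interaction was 0.03 (SE 0.36). Without the 3 libraries it was −0.72 for *Islr*, −0.76 for *Ogn*, −0.53 for *Dcn*, −0.24 for *Fn1* and −0.35 for *Slc6a13*. With the olfactory bulb list as a covariate, *Islr* and *Ogn* were at −0.30 and −0.21.

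Mice of the same group did not vary alike in all 10 genes. Deviations of log2(CPM + 1) from the group mean were correlated over the 24 libraries, which share depth and the amount of each tissue in the section, and the values are given as descriptions. *Dcn*, *Lum*, *Bgn* and *Fn1* moved closely together (Pearson r 0.91 to 0.95), and *Postn* followed them (0.75 to 0.80). Among *Islr*, *Ogn* and *Slc6a13* r was 0.68 to 0.77, no higher than some links to the first genes, such as *Ogn* with *Fn1* (0.74) and *Bgn* (0.70) and *Islr* with *Fn1* and *Bgn* (0.71 each). *Thbs4* was nearer to *Lum* (0.70) than to *Ogn* (0.18), *Islr* (0.17) or *Slc6a13* (0.10). *Aspn* had no r above 0.52 with any of the others over the 24 libraries. Once the 3 libraries were left out, its r was 0.65 with *Postn*, 0.60 with *Ogn* and 0.53 to 0.55 with *Islr*, *Fn1* and *Bgn*. Without the 3 libraries, r was 0.77 to 0.88 among *Dcn*, *Lum*, *Bgn* and *Fn1* and 0.52 to 0.68 among *Islr*, *Ogn* and *Slc6a13*. *Ogn* with *Fn1* was then 0.56, while *Islr* with *Fn1* and *Bgn* was 0.38 and 0.43 and *Lum* against *Islr* went from 0.56 to 0.01.

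**Figure D4:**
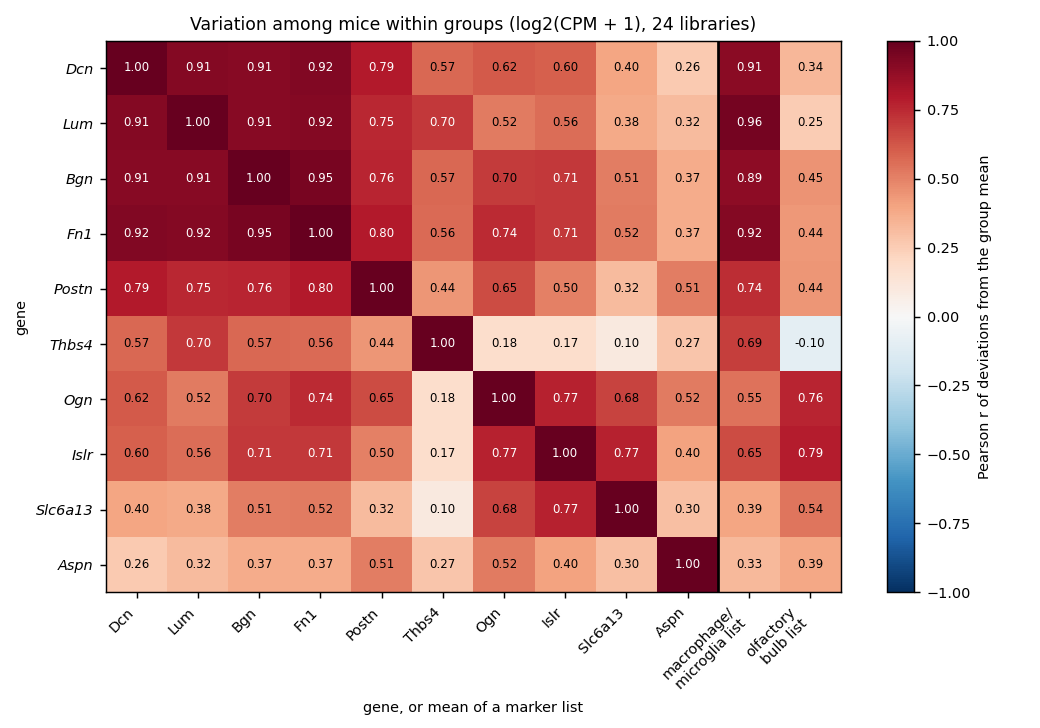
Pearson r between deviations from the group mean for each pair of the 10 genes, and for each gene against the mean of the macrophage and microglia list and of the olfactory bulb list (24 libraries, log2(CPM + 1)). The block of *Dcn*, *Lum*, *Bgn* and *Fn1* has r of 0.91 to 0.95, and *Ogn* and *Islr* have r of 0.76 and 0.79 with the olfactory bulb list.

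The genes followed the marker lists to different degrees. *Lum* had r = 0.96 with the macrophage and microglia list and 0.25 with the olfactory bulb list (0.89 and −0.30 without the 3 libraries). *Islr* had r = 0.65 and 0.79 (0.14 and 0.70 without the 3), *Ogn* 0.55 and 0.76, and *Slc6a13* 0.39 and 0.54. *Thbs4* had r = 0.69 with the macrophage list, −0.10 with the olfactory bulb list and 0.42 with the striatum list (0.67, −0.42 and 0.77 without the 3), and *Islr* had −0.59 with the striatum list. NT + Stroke mouse 4 is an example, with the least *Lum* (7.98 CPM) and *Lgals3* (8.34 CPM) of its group and the most *Slc6a13* (42.5 CPM), while its olfactory bulb list summed to 393 CPM. HT + Stroke mouse 2 had 15.9 CPM of *Lum* and 51.7 CPM of *Lgals3* but only 8.72 CPM of *Ogn*, and its olfactory bulb list summed to 38.3 CPM.

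**Figure D5:**
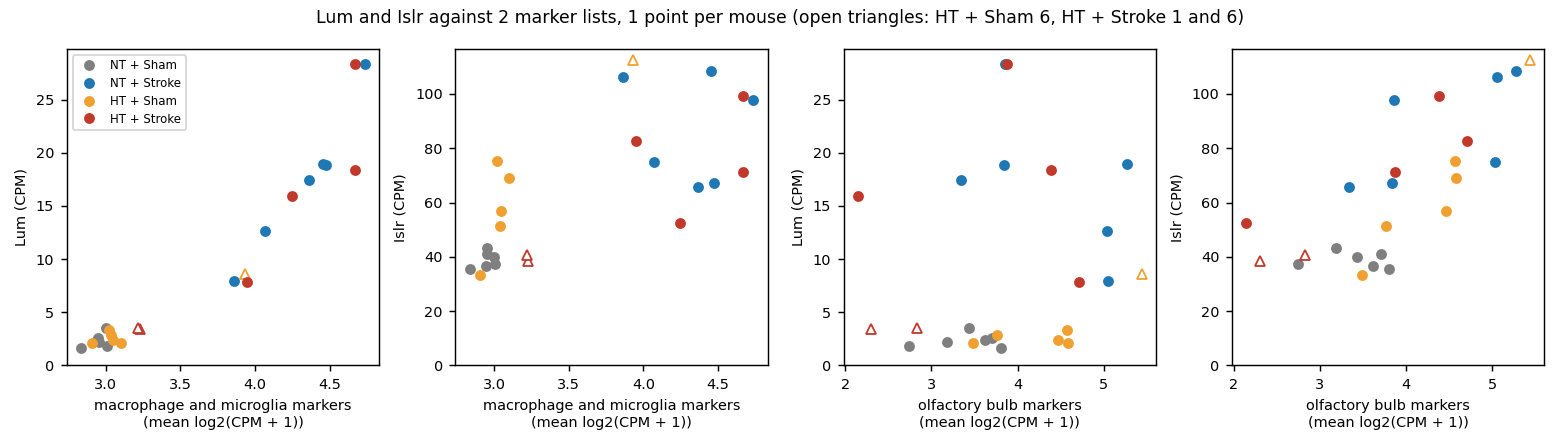
CPM of *Lum* and *Islr* in each of 24 mice against the mean log2(CPM + 1) of the macrophage and microglia list and of the olfactory bulb list, coloured by group, with open triangles for the 3 libraries that stood apart. *Lum* climbs with the macrophage list over all groups and is low or high at any level of the olfactory bulb list, while *Islr* spans 33.2 to 112 CPM among HT + Sham mice and is highest at the right of the olfactory bulb panel.

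Genes outside the 10 were ranked by how closely their deviations followed the mean of the 10, over all 24 libraries and the 15482 genes whose mean was 1 CPM or more. The highest were *Arpc1b* (r = 0.96), a subunit of the actin-branching Arp2/3 complex, *Serping1* (0.96), *Sparc* (0.95), a matricellular collagen-binding protein, *Thbd* (0.95), the endothelial thrombin receptor thrombomodulin, and *Lgals3bp* (0.94). *Anxa2* (0.94), *Mxra8* (0.94), *Cyp1b1* (0.94), *Igf1* (0.92) and *Serpinf1* (0.92) followed. Without the 3 libraries their r was 0.77 to 0.91. In NT + Stroke vs NT + Sham these genes had log2 fold changes of 1.01 (*Sparc*) to 2.38 (*Serping1*).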

How the data were processed

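Poly(A) RNA of 24 libraries was sequenced, 6 from each of 4 groups. Counts as deposited by the authors are whole numbers of reads per gene, not normalized, with featureCounts 1.5.0-p3 and DESeq2 1.20.0 named in the submitters' processing notes and the Ensembl mouse genome named in the methods. The aligner was not given in the sources used here. FPKM as deposited by the authors are counts divided by gene length and library size. The authors' fold changes and *P* values and 56 columns of normalized counts and group means were not used. The 4 tables were joined by Ensembl identifier, and 29292 values of genes missing from a table were set to 0. Library columns that occurred in several tables held equal values (0 of 48 differed). Of 33960 genes also in GENCODE M21, 97.55% had the same position, so positions are on GRCm38.

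Differences were tested with edgeR 4.0.16 under R 4.3.3 (filterByExpr with minimum count 10 and minimum total 15, TMM scaling, robust quasi-likelihood test, two-sided). Adjustment (Benjamini-Hochberg) ran across every gene tested, with a threshold of 0.05. Fits took the groups compared, or all 4 for the interaction. The fits of NT + Stroke vs NT + Sham and of the interaction were tested on simulated data. Those data had the same relative spread beyond counting noise in all genes and groups, unlike these libraries. Alternatives were DESeq2 1.42.0, limma 3.58.1 on log2(FPKM + 1) and log2(FPKM + 0.1), no scaling or upper-quartile scaling, a looser filter (1 count in total) and a stricter one (10 counts in each library), 1 fit of all groups, the library number as a block, and each library left out. The omission of 3 libraries and the covariates (mean log2(CPM + 1) of the olfactory bulb or the striatum markers) were added after the data were seen. The genes and the lists were chosen with earlier results of these data known. Named genes are the 10 genes, their genomic neighbours and up to 4 genes per list with the largest changes. The 10 genes most alike in within-group deviations are named too. A few list genes that did not pass and marker genes (*Gfap*, *Lgals3*, *Slc17a7*, *Ccn2*, *Krt5*, *Krt14*, *Ibsp*, *Bglap*) were named after their values were seen. Precision is limited by 6 mice per group, and genes with few counts vary more.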

Additional observations from a re-analysis of the deposited data

Results flagged for a closer look

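Each of the 10 genes was examined within each of the 4 groups of 6 mice for a highest or lowest mouse whose gap to its nearest neighbour was a larger part of the group's range than Dixon's 95% critical value. In 40 such groups 3 were found, where chance gives about 1 in 20. *Dcn* was 28.2 CPM in HT + Sham mouse 6 and 10.1 to 16.2 CPM in the other HT + Sham mice. *Lum* was 8.64 CPM in the same mouse and 2.09 to 3.37 CPM in the others. This mouse is the HT + Sham library that stood apart in *Gfap* and *Lgals3*, and without it the difference between HT + Sham and NT + Sham was 0.41 for *Dcn* and 0.13 for *Lum* on the log2 scale. *Aspn* was 2.32 CPM in NT + Sham mouse 2 and 1.18 to 1.58 CPM in the other NT + Sham mice, and without that mouse the log2 fold change of *Aspn* in NT + Stroke vs NT + Sham was 0.20.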

How the results depend on the processing

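In NT + Stroke vs NT + Sham the 9 calls held under every alternative run except the olfactory bulb covariate, which ended that of *Slc6a13*. *Aspn* was at −0.01 with the library number as a block (−0.005898 unrounded), at −0.004813 with the striatum covariate and at −0.19 with the olfactory bulb covariate, and at −0.17 to 0.20 with 1 library left out.

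In HT + Stroke vs HT + Sham the count of genes called was 67 with no scaling, 179 with all genes of at least 1 count, 1125 with all 4 groups in 1 fit, 907 with DESeq2, 68 with limma on log2(FPKM + 1), 1437 without the 3 libraries, 672 with the olfactory bulb covariate, 3 with the striatum covariate and 9 to 533 with 1 library left out. Of the 10 genes, 3, 2, 7 and 3 were called with all groups in 1 fit, with DESeq2, without the 3 libraries and with the olfactory bulb covariate. *Islr* was at 0.002295 and 0.002427 with limma, 0.45 without the 3 libraries, 0.55 and 0.996 with the olfactory bulb and striatum covariates and −0.21 to 0.20 with 1 library left out, and *Slc6a13* at −0.11 to 0.16.

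In HT + Stroke vs NT + Sham, 4 of the 10 were called with all genes of at least 1 count and with limma on either FPKM scale, 0 with the striatum covariate (0 genes in all) and 4 to 8 with 1 library left out (1357 to 2966 genes, *Aspn* at −0.17 to 0.22).

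In HT + Sham vs NT + Sham the olfactory bulb covariate put *Lum* at −0.30, *Fn1* at −0.16 and *Postn* at −0.23, and *Postn* was at −0.0531 to 0.19 with 1 library left out. In HT + Stroke vs NT + Stroke, *Lum*, *Postn*, *Bgn* and *Thbs4* were at 0.0297, 0.0557, 0.19 and 0.10 without the 3 libraries, *Postn*, *Bgn* and *Slc6a13* at 0.0365, 0.0535 and 0.003522 with the olfactory bulb covariate, and *Aspn* at −0.0365 with no scaling. With 1 library left out, *Aspn* was at −0.20 to 0.22 and *Thbs4* at −0.26 to 0.0549. In the interaction DESeq2 called 22 genes. There *Postn* was at 0.12 without the 3 libraries and 0.22 with the olfactory bulb covariate. *Thbs4* was at −0.0401 with no scaling, −0.008261 with limma on log2(FPKM + 1), −0.0309 and −0.14 with the olfactory bulb and striatum covariates and −0.12 to 0.18 with 1 library left out. By FPKM 9 of the 10 genes had their highest mean in NT + Stroke, and 10 by CPM. In every case the mean ± SD of the highest group overlapped that of the next. The cause of the changes between settings was not tested.

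The library numbers did not pair the mice: in each comparison at most 3 of 6 same-numbered pairs had a correlation of deviations over 0.1, and at most 1 of 6 libraries was closest to its own number. With the number as a block, 46 genes and 0 of the 10 were called in HT + Stroke vs HT + Sham (*Thbs4* adjusted *P* = 0.0558 by edgeR) and 770 genes and 3 of the 10 in HT + Stroke vs NT + Sham.

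Over 690 results of single genes under alternatives other than leaving out 1 library, 630 kept their direction and side of the threshold and 25 changed sign. Over 840 with 1 library left out, 773 kept both and 37 changed sign. Genes near 1 CPM, such as *Aspn*, rest on few counts per library, and a small difference in them may not be detectable at this depth.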
